A study of Homo sapiens with 9 samples.

Results

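The genes TCP1, CCT2, CCT3, CCT4, CCT5, CCT6A, CCT7 and CCT8 encode the 8 subunits of the cytosolic chaperonin CCT, also called TRiC. They were taken as the rows of the deposited expression table whose symbol equalled one of these names, which gave 8 of 23621 gene rows. All 8 members passed the filter on low values, a mean of at least 1 FPKM (fragments scaled by transcript length and library size) over the 9 libraries. CCT is a barrel of stacked rings, each ring holding one copy of every subunit, in which newly made proteins fold in cycles driven by ATP. Actin and tubulin are its best known clients, prefoldin hands unfolded clients to it, and phosducin-like proteins bind it and act on client folding. Because each subunit has its own place in the ring, a working complex needs all of them, and dividing blood cancer cells express them at high level.

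The cells were MOLT4, a human line established from T-cell acute lymphoblastic leukemia (T-ALL), and their RNA was sequenced 6 h after treatment, with 3 libraries in each of 3 groups. The groups were vehicle (DMSO at 0.1%), MI-389 and sunitinib. Sunitinib inhibits receptor kinases, MI-389 is a phthalimide conjugate by the design text, and GSPT1, a factor that ends translation, is named in the title of the series. The treated libraries carry conflicting labels: the source field of those titled MI-389 names sunitinib at 1 µM, and that of those titled sunitinib names MI-389 at 0.1 µM. The list of library barcodes and the column names follow the titles, so the groups are given here as the libraries titled MI-389 and the libraries titled sunitinib. Should the source field be the correct label, each statement on one treated group holds for the other. The doses differ under either reading, so compound and dose cannot be told apart in any comparison of the treated groups. The labels do not say whether replicates are separate cultures, and the p-values therefore reflect only how these libraries vary, which may be technical.

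Of 12 T-ALL marker genes, 12 had a mean of at least 1 FPKM and 11 of at least 10 FPKM. Of 11 markers of other cell types, 2 had a mean of at least 1 FPKM (PECAM1 and KRT8). The summed level of all 11 ranged from 22.3 to 25.0 FPKM in DMSO. It ranged from 20.3 to 22.6 FPKM in the libraries titled MI-389 and from 19.6 to 24.2 FPKM in those titled sunitinib. Replicate 1 of DMSO stood lower than the other two controls for 8 of the 8 members, so results are also given without it. Over 12301 genes tested, the median log2 difference from DMSO was −0.00 with MI-389 by title and −0.10 with sunitinib by title. Centring each library on its median moved the median difference between the treated groups from 0.08 to −0.08, and moved the calls between them from 4427 higher and 2500 lower to 3279 higher and 4863 lower. In the libraries titled sunitinib against DMSO the calls were 291 higher and 2079 lower as deposited. Centring gave 1270 and 1866, quantile normalization 1696 and 1981, and cyclic loess 1852 and 1962. With MI-389 by title against DMSO they were 3502 higher and 3477 lower as deposited, and 3222 and 4956 after centring.

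The subunit transcripts were abundant and of like level. In DMSO, the mean level per unit of transcript length ran from 396 ± 35.4 FPKM for CCT5 to 798 ± 76.1 FPKM for CCT3 (SD, n = 3), a ratio of 2.02 between the highest and the lowest. The order from high to low was CCT3, CCT7, TCP1, CCT2, CCT6A, CCT4, CCT8 and CCT5. Each of the 3 DMSO libraries gave this same order. Compared across libraries, only CCT2 and CCT6A were neighbours whose ranges did not overlap, and replicate 1 was lower for every member. The 8 levels summed to 4235, 4906 and 4981 FPKM in the DMSO libraries, to 3566, 3443 and 3604 FPKM in those titled MI-389, and to 4049.8, 4006 and 3943 FPKM in those titled sunitinib. Both treated groups lay below every control library, and the libraries titled MI-389 lay below every library titled sunitinib. In these bulk samples, fewer cells expressing these genes and less of their RNA in each cell cannot be told apart.

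**Figure D1:**
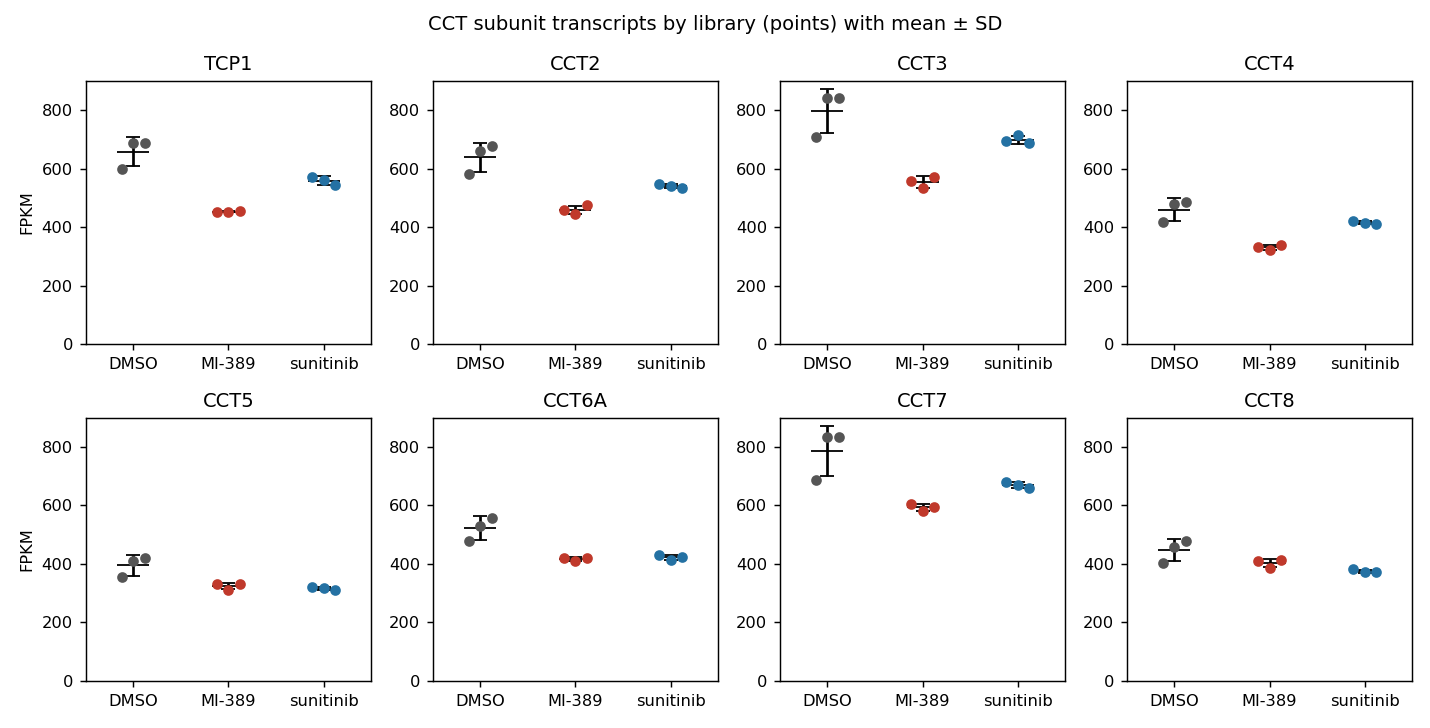
Level in FPKM (y axis, from 0) of each CCT subunit transcript in the 3 libraries of DMSO, MI-389 and sunitinib, grouped by library title. Points are libraries and bars the mean ± SD, and for CCT8 the libraries titled MI-389 reach into the range of DMSO.

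In the libraries titled MI-389, 7 of the 8 subunit transcripts were lower than in DMSO. The fall was largest for TCP1, CCT3, CCT2 and CCT4, smaller for CCT7, CCT6A and CCT5, and CCT8 did not pass the test. All tests are two-sided, from limma on log2(FPKM + 1) with Benjamini-Hochberg (BH) adjustment over the 12301 genes, and log2 differences are on that scale. The share of all genes called in either direction was 56.7%, and of those called lower 28.3%. The libraries of 7 of the 8 members did not overlap with DMSO, where 60.2% of all genes did not. The median log2 difference of the members was −0.43.

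TCP1, the alpha subunit after which the family is named, stood at 600.0, 688 and 689 FPKM in DMSO, at 451, 454 and 457 FPKM in the libraries titled MI-389 and at 572, 563 and 543 FPKM in those titled sunitinib. The 3 groups did not overlap. It was 1.45-fold lower in the libraries titled MI-389 than in DMSO, a log2 difference of −0.53 (95% interval −0.67 to −0.39, limma, BH-adjusted p = 7.53e-05).

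CCT3, the gamma subunit, stood at 710.2, 843 and 841 FPKM in DMSO, at 559, 533 and 573 FPKM in the libraries titled MI-389 and at 694, 715 and 687 FPKM in those titled sunitinib. The libraries titled MI-389 were lowest throughout, while the highest library titled sunitinib exceeded the lowest control. CCT3 was 1.44-fold lower with MI-389 by title (log2 difference −0.52, limma, BH-adjusted p = 0.000231).

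CCT2, the beta subunit, stood at 584, 659.9 and 677 FPKM in DMSO, at 459.5, 446 and 474 FPKM in the libraries titled MI-389 and at 548, 541 and 535 FPKM in those titled sunitinib. The groups did not overlap, and the fall against DMSO in the libraries titled MI-389 was 1.39-fold (log2 difference −0.47, limma, BH-adjusted p = 0.000176). CCT4, the delta subunit, stood at 417, 480.0 and 485 FPKM in DMSO, at 332, 323 and 340.0 FPKM in the libraries titled MI-389 and at 423, 413 and 411 FPKM in those titled sunitinib. Only the libraries titled MI-389 lay apart from DMSO, also with a 1.39-fold fall (log2 difference −0.47, limma, BH-adjusted p = 0.000203).

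CCT7, the eta subunit, stood at 687, 834 and 835 FPKM in DMSO, at 605, 579.9 and 596 FPKM in the libraries titled MI-389 and at 682, 670.4 and 661 FPKM in those titled sunitinib. Every treated library lay below every control, narrowly so for the libraries titled sunitinib against replicate 1 of DMSO. The fall in the libraries titled MI-389 was 1.32-fold (log2 difference −0.40, limma, BH-adjusted p = 0.00154).

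CCT6A, the zeta subunit, stood at 477, 531 and 557 FPKM in DMSO, at 419, 409 and 419.8 FPKM in the libraries titled MI-389 and at 430.4, 414 and 425 FPKM in those titled sunitinib. CCT5, the epsilon subunit, altered in an inherited sensory neuropathy, stood at 355, 411 and 420.4 FPKM in DMSO, at 330.3, 311 and 331 FPKM in the libraries titled MI-389 and at 320.1, 318 and 309 FPKM in those titled sunitinib. For both genes the treated groups overlapped each other and lay below every control. The falls in the libraries titled MI-389 were 1.25-fold for CCT6A (log2 difference −0.32, limma, BH-adjusted p = 0.00155) and 1.22-fold for CCT5 (log2 difference −0.28, limma, BH-adjusted p = 0.00553), but after cyclic loess they were −0.02 and −0.00, with adjusted p of 0.461 and 0.922.

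CCT8, the theta subunit, stood at 404, 459 and 477 FPKM in DMSO, at 409.9, 387 and 414 FPKM in the libraries titled MI-389 and at 382, 372 and 372 FPKM in those titled sunitinib. Replicate 1 of DMSO fell within the range of the libraries titled MI-389, and those titled sunitinib were lowest. The log2 difference in the libraries titled MI-389 was −0.14 (95% interval −0.29 to 0.00, limma, BH-adjusted p = 0.0891). Its sign depended on the scaling: quantile normalization gave 0.09 (limma, BH-adjusted p = 0.0159) and cyclic loess 0.15 (limma, BH-adjusted p = 0.000327). Without replicate 1 of DMSO, 8 of the 8 members were called lower in the libraries titled MI-389, beside 4085 of the 12301 genes tested.

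The count of 7 lower members was read against the share of abundant genes that fell. Among the 598 genes that averaged 300 FPKM or more, an alternative added after seeing the data that holds all 8 members, 68.1% were called lower in the libraries titled MI-389, and their median log2 difference was −0.31. Quantile normalization gave a median of −0.19 for the members and cyclic loess −0.12, so its size depended on the scaling.

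**Figure D2:**
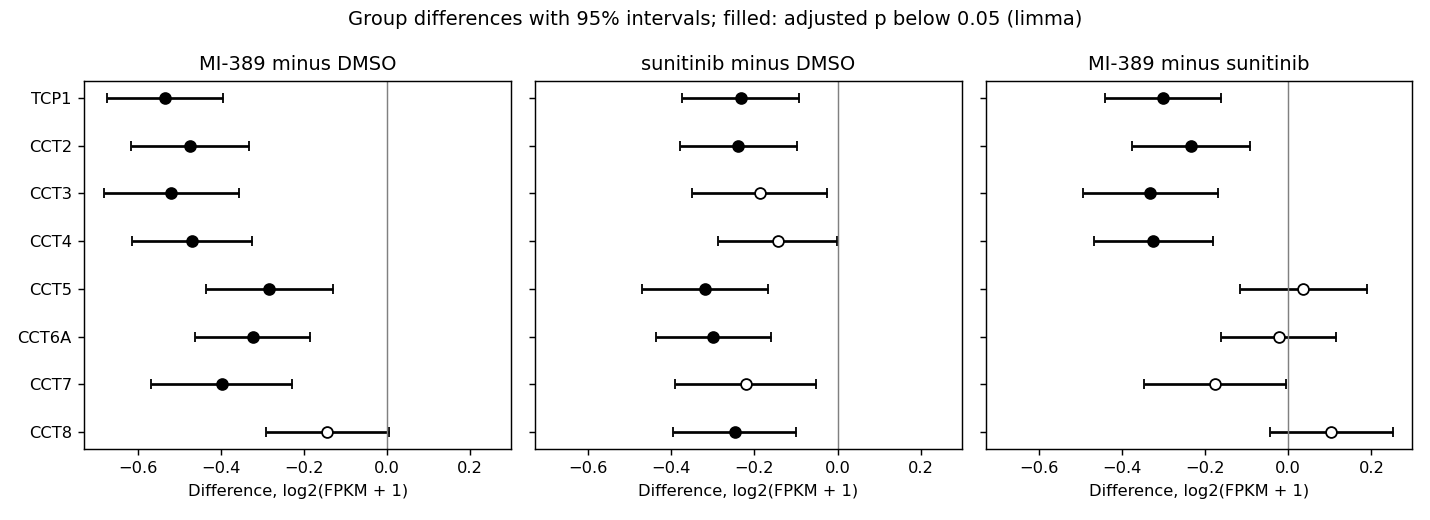
Difference between groups on the log2(FPKM + 1) scale (x axis) with its 95% interval for each CCT subunit (y axis), grouped by library title. Filled points have a limma BH-adjusted p below 0.05, and the filled points number 7, 5 and 4 from left to right.

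Promoters are shown for TCP1, CCT3, CCT2 and CCT4, the 4 members with the largest falls in the libraries titled MI-389, and for CCT8, which did not pass the test there. Where a gene has a window with a match and one without, the one with the match is shown. Sequences are from RefSeq on GRCh38.p14, another build than that of the expression table, and each runs 5′ to 3′ on the gene's strand over 300 bases that end 50 bases after a transcript start. CCT genes have been studied as targets of heat shock factor, so both arrangements of the heat shock element, GAANNTTC and TTCNNGAA (each its own reverse complement), were searched, and capitals mark a match. The windows lie at chr6:159789553-159789852 on the minus strand for TCP1, chr1:156338243-156338542 on the minus strand for CCT3, chr12:69585639-69585938 on the plus strand for CCT2, chr2:61888607-61888906 on the minus strand for CCT4 and chr21:29073599-29073898 on the minus strand for CCT8.
TCP1: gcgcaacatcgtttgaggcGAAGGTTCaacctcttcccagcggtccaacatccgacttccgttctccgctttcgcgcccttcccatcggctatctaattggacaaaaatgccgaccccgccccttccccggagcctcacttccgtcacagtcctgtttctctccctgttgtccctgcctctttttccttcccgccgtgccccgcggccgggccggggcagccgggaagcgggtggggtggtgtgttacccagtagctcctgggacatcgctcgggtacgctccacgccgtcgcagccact
CCT3: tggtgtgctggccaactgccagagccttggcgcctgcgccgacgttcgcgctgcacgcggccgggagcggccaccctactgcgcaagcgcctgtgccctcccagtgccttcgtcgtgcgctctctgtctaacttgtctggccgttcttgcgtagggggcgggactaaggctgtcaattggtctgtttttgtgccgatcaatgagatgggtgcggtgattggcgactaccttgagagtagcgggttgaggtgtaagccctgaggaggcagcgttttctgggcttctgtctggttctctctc
CCT2: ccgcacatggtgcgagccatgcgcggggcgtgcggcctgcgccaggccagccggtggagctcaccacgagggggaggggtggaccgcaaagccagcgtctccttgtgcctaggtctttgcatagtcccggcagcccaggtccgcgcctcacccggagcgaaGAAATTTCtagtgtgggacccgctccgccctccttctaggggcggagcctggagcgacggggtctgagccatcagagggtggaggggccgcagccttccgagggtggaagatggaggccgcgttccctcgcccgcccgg
CCT4: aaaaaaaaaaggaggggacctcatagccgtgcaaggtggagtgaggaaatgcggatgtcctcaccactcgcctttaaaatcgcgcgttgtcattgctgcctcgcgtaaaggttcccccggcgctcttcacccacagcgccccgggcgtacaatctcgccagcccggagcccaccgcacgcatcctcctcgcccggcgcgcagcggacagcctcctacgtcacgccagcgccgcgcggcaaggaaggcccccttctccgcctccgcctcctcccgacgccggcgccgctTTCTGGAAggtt
CCT8: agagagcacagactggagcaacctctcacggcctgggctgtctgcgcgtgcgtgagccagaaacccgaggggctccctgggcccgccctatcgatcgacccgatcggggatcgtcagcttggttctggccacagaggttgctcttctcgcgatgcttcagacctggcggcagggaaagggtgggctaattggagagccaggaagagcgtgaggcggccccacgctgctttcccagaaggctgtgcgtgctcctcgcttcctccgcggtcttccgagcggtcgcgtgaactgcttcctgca
The match GAAGGTTC in TCP1 began at position −231 from the start, GAAATTTC in CCT2 at −89, and TTCTGGAA in CCT4 at 39. No match was found in the windows of CCT3, CCT5, CCT7 and CCT8, nor in the other windows of CCT2 and CCT4, so members that fell had windows with and without a match. RefSeq windows were matched for 7 of the 8 members, 9 windows in all, and 3 of the 9 held a match. CCT6A is named only. Among 35116 promoter windows of the same length, 6.77% held GAANNTTC, 7.74% held TTCNNGAA and 13.5% held either. Neither the E-box CACGTG, present in 7.26% of all windows, nor the ATF4-type element TGATGNAA (reverse complement TTNCATCA), present in 3.62%, was found in these 9 windows. A match describes letters only.

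In the libraries titled sunitinib, 5 of the 8 members were lower than in DMSO, where 19.3% of all genes were called in either direction and 16.9% lower. The called members were TCP1, CCT2, CCT5, CCT6A and CCT8, each lower by 1.18-fold to 1.25-fold. The median log2 difference of the members was −0.24. CCT5 had the largest difference, −0.32 (95% interval −0.47 to −0.17, limma, BH-adjusted p = 0.0126). CCT6A followed with −0.30 (limma, BH-adjusted p = 0.0114) and CCT8 with −0.25 (limma, BH-adjusted p = 0.0300). CCT2 and TCP1 differed by −0.24 and −0.23 (limma, BH-adjusted p = 0.0287 and 0.0301).

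CCT7, CCT3 and CCT4 did not pass the test in the libraries titled sunitinib. Their log2 differences were −0.22, −0.19 and −0.14, with limma BH-adjusted p of 0.0689, 0.0978 and 0.143. By library values, 6 of the 8 members did not overlap with DMSO, where 35.2% of all genes did not. Among the same 598 genes, tested alone, 7.86% were called lower, 2 of the members were called and the median log2 difference of all genes was −0.12.

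The count for the libraries titled sunitinib changed with the library left out. It was 8 without replicate 1 of DMSO and 2 without replicate 2 or replicate 3 of DMSO. It was 2 without replicate 1 of MI-389, 3 without replicate 3 of MI-389, 2 without replicate 1 of sunitinib and 1 without replicate 2 or replicate 3 of sunitinib. Leaving out a library titled MI-389 did not change these log2 differences, only the estimated spread. Calls over all genes moved as well, from 2079 lower to 3950 without replicate 1 of DMSO. They were 1404 and 1204 without replicate 2 and replicate 3 of DMSO, and 806 and 872 without replicate 2 and replicate 3 of sunitinib. The median log2 difference of the members stayed between −0.31 and −0.20 over these omissions, and was −0.11 after quantile normalization or cyclic loess.

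Between the treated groups, 4 of the 8 members were lower in the libraries titled MI-389 than in those titled sunitinib, where 56.3% of all genes were called in either direction and 20.3% lower. The 4 were CCT3 (log2 difference −0.33, limma, BH-adjusted p = 0.00338), CCT4 (−0.32, adjusted p = 0.00189), TCP1 (−0.30, adjusted p = 0.00254) and CCT2 (−0.23, adjusted p = 0.0102). The difference of CCT2 was −0.05 after cyclic loess and no longer passed (limma, BH-adjusted p = 0.0700). CCT7 differed by −0.18 (limma, BH-adjusted p = 0.0729) and by 0.02 after cyclic loess. The libraries of 6 members did not overlap between the treated groups, where 69.4% of all genes did not.

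CCT5, CCT6A and CCT8 did not pass between the treated groups. The 95% interval of the log2 difference ran from −0.12 to 0.19 for CCT5, from −0.16 to 0.11 for CCT6A and from −0.04 to 0.25 for CCT8. The signs of these 3 differences depended on the scaling: CCT5 and CCT8 turned to −0.13 and −0.06 after centring on library medians, and CCT6A to 0.08 after quantile normalization and 0.14 after cyclic loess. Centring called 7 of the 8 members lower, beside 4863 of the 12301 genes lower and 3279 higher. Quantile normalization called 4 lower and 2 higher (CCT5 and CCT8), beside 4426 and 3791 of all genes. Cyclic loess called 3 lower and 3 higher (CCT5, CCT6A and CCT8), beside 4040 and 4075 of all genes. Among the 598 abundant genes, 50.8% were called lower between the treated groups and their median log2 difference was −0.23, beside −0.21 for the members.

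The make-up of the subunit transcript pool differed between the groups in these libraries. Each member's share of the summed FPKM of the 8 is a ratio within one library, so it does not move with a factor common to that library. CCT8 held 9.55%, 9.35% and 9.58% of the pool in DMSO, 11.5%, 11.2% and 11.5% in the libraries titled MI-389 and 9.42%, 9.29% and 9.43% in those titled sunitinib. The libraries titled MI-389 lay above all others. CCT3 held 16.8%, 17.2% and 16.9% in DMSO, 15.7%, 15.5% and 15.9% in the libraries titled MI-389 and 17.1%, 17.8% and 17.4% in those titled sunitinib, so here the libraries titled MI-389 lay below all others.

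CCT5, CCT6A and CCT8 held a higher share in the libraries titled MI-389 than in any control, and TCP1, CCT2, CCT3 and CCT4 a lower one. TCP1 went from 14.0% ± 0.169 to 12.8% ± 0.302 (SD, n = 3), and CCT5 from 8.40% ± 0.0336 to 9.16% ± 0.109. CCT7, at 16.7% ± 0.392 in DMSO and 16.8% ± 0.215 in the libraries titled MI-389, overlapped. With sunitinib by title, CCT4 held more than in any control (10.4% ± 0.0665 against 9.79% ± 0.0511), and CCT5 (7.90% ± 0.0502) and CCT6A (10.6% ± 0.229 against 11.1% ± 0.231) held less. With 3 libraries against 3, an exact two-sided permutation test cannot give a p below 0.1, which the separated shares reached. In all, 24 such comparisons were made. The shares of a library add up to its whole pool, so a higher share of some members lowers that of others. The comparisons are therefore not independent.

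CCT8 and CCT3 were taken as a pair after their values were seen. The ratio of CCT8 to CCT3 was 0.570, 0.544 and 0.567 in DMSO, 0.733, 0.725 and 0.722 in the libraries titled MI-389 and 0.550, 0.521 and 0.541 in those titled sunitinib. The libraries titled MI-389 had the higher ratios, apart from both other groups. The log2 difference of CCT8 from DMSO in the libraries titled MI-389 exceeded that of CCT3 by 0.38. The excess was 0.37 after quantile normalization, 0.35 after cyclic loess, and 0.35 to 0.39 with a compared library left out. The other alternatives move it little or not at all by construction, so they do not test it.

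**Figure D3:**
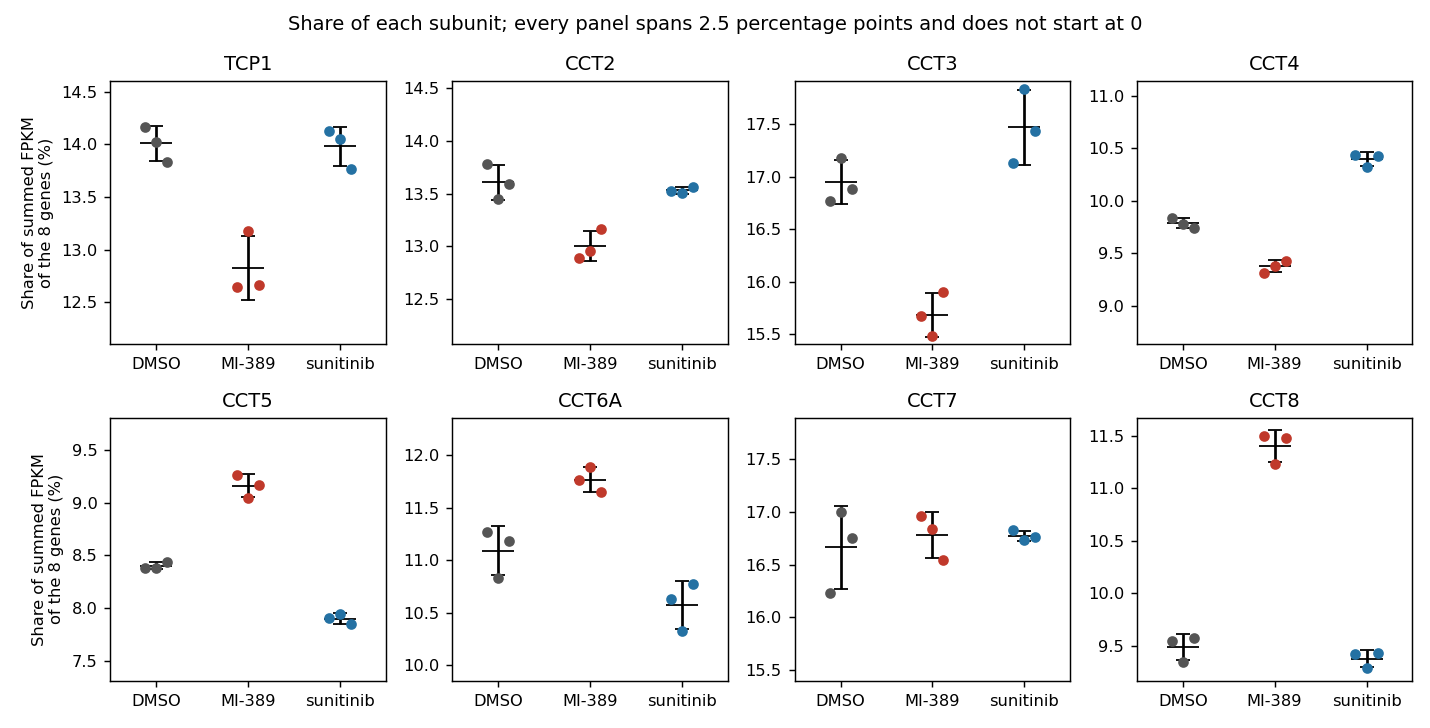
Share of each CCT subunit in the summed FPKM of the 8 subunits (y axis, percent) by library title, with points for libraries and bars for the mean ± SD. Every panel spans the same range of percentage points and does not start at 0, and CCT5, CCT6A and CCT8 stand higher, and TCP1, CCT2, CCT3 and CCT4 lower, in the libraries titled MI-389 than in DMSO.

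Across the 9 libraries, the members' levels were also related to a differing degree. Of 28 pairs, the highest Pearson correlation of log2(FPKM + 1) was 0.994 (CCT3 and CCT4) and the lowest 0.468 (CCT4 and CCT8). CCT5 and CCT6A had 0.973 with each other, and CCT5 and CCT8 had 0.948. All points share the same 9 libraries, their treatment and their scaling, so these values are a description. Outside the family, the genes whose level was most like the mean of the members, of 8599 that averaged 10 FPKM or more, included NUTF2 (r = 0.997), PCBP1 (0.996), CDK2 (0.995), MCM2 (0.994), YWHAG (0.993), STT3A (0.993) and YBX1 (0.993). NUTF2, a nuclear import factor for Ran, stood at 501 ± 49.3 FPKM in DMSO, 378 ± 5.80 FPKM in the libraries titled MI-389 and 423 ± 2.36 FPKM in those titled sunitinib.

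Partners and clients of CCT, together with chaperonins of other kinds, were described by 9 lists with 49 tested genes. Of the 49, 32 were lower and 8 higher in the libraries titled MI-389 than in DMSO, beside 28.3% of all genes lower and 28.5% higher. In those titled sunitinib 8 were lower and 1 was higher, beside 16.9% and 2.37% of all genes. Between the treated groups 22 were lower in the libraries titled MI-389 and 8 higher, beside 20.3% and 36.0% of all genes. Without replicate 1 of DMSO, 29 were lower and 1 was higher in the libraries titled sunitinib, beside 3950 and 294 of the 12301 genes. Counts of single lists without this library, given below, stand beside the same numbers of all genes.

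Prefoldin, the jawed co-chaperone that delivers actin and tubulin to CCT, was lower in the libraries titled MI-389 for 6 of its 6 subunits. The median log2 difference was −0.35. PFDN6 went from 342 ± 36.7 to 229 ± 2.60 FPKM (SD, n = 3; log2 difference −0.57, limma, BH-adjusted p = 0.000134), and PFDN5 from 762 ± 60.3 to 547 ± 18.3 FPKM (−0.47, adjusted p = 0.000204). VBP1 differed by −0.22 and lost its call after quantile normalization (−0.04) and cyclic loess (0.01, limma, BH-adjusted p = 0.905). With sunitinib by title, 1 of the 6 was lower, PFDN2 (log2 difference −0.25, limma, BH-adjusted p = 0.0410), and that call was lost after centring, quantile normalization and cyclic loess, while 5 of the 6 were lower without replicate 1 of DMSO.

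The prefoldin-like complex around URI1 acts with the R2TP assembly machinery. Of its 3 tested genes, 2 were lower and 1 was higher in the libraries titled MI-389. PDRG1 stood at 100.7, 119.7 and 121 FPKM in DMSO, at 201, 188 and 191 FPKM in the libraries titled MI-389 and at 113, 122 and 120.3 FPKM in those titled sunitinib. It was thus higher in every library titled MI-389 than in any other, by 1.70-fold over DMSO (log2 difference 0.76, limma, BH-adjusted p = 2.54e-05). URI1 was 1.53-fold lower (log2 difference −0.61, limma, BH-adjusted p = 1.27e-05) and UXT 1.39-fold lower (−0.47, adjusted p = 0.00131). URI1 was also lower in the libraries titled sunitinib (−0.29, limma, BH-adjusted p = 0.00773), and without replicate 1 of DMSO 2 of the 3 were lower there.

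Of the phosducin-like cofactors, TXNDC9, which binds CCT and lowers its activity, was 1.35-fold higher in the libraries titled MI-389 (log2 difference 0.43, limma, BH-adjusted p = 0.000243). PDCL3 differed from DMSO by −0.29 in each treated group (limma, BH-adjusted p = 0.00130 with MI-389 and 0.00853 with sunitinib by title), comparisons that share the DMSO libraries. PDCL, which helps assemble G protein beta subunits, differed from DMSO by 0.12 and −0.08 and passed in neither (limma, BH-adjusted p = 0.0720 and 0.267). PDCL2 did not pass the filter on low values.

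The tubulins, clients of CCT, were lower in the libraries titled MI-389 for 10 of 11 tested genes, with a median log2 difference of −0.76, and 10 were lower under each of 4 other scalings. TUBB, the main beta tubulin of this table, stood at 2731, 3626 and 3598 FPKM in DMSO, at 1479.9, 1395 and 1484 FPKM in the libraries titled MI-389 and at 2775, 2855 and 2728 FPKM in those titled sunitinib. The libraries titled MI-389 lay far below both other groups, while replicate 1 of DMSO fell within the range of those titled sunitinib. TUBB was 2.28-fold lower (log2 difference −1.18, limma, BH-adjusted p = 1.34e-05), TUBB4B 2.35-fold, TUBB3 2.37-fold and TUBA1C 2.07-fold. With sunitinib by title, 2 of the 11 were lower, TUBB3 (−0.25, limma, BH-adjusted p = 0.0182) and TUBG1 (−0.30, adjusted p = 0.0427). That count became 5 lower and 1 higher after quantile normalization or cyclic loess, and 6 lower without replicate 1 of DMSO. Tubulin genes are close copies of each other, so the counting may have divided reads between them.

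The actins differed from the tubulins in these values. ACTB and ACTG1 had log2 differences of 0.07 and 0.05 in the libraries titled MI-389 against DMSO and did not pass (limma, BH-adjusted p = 0.578 and 0.659). Neither passed in the other comparisons by limma as deposited, where ACTB between the treated groups alone had an unadjusted p under 0.05. After quantile normalization or cyclic loess both were called higher in the libraries titled MI-389 than in DMSO, with medians of 0.31 and 0.49. Of the 6 tubulin folding cofactors, which take tubulin on from CCT, 4 were lower in the libraries titled MI-389 (TBCA, TBCB, TBCD and ARL2, by −0.36 to −0.33) and TBCE was higher (0.36, limma, BH-adjusted p = 0.00569). The call of TBCA was lost after quantile normalization and cyclic loess. By limma on the values as deposited, 0 of the 6 passed in the libraries titled sunitinib, where 2 had an unadjusted p under 0.05. TBCD was called higher there after centring, quantile normalization and cyclic loess. Without replicate 1 of DMSO, 3 of the 6 cofactors (TBCA, TBCB and ARL2) and both actins were called lower there.

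Of 12 other clients, 6 were lower and 2 higher in the libraries titled MI-389. CCNE1, cyclin E, was 2.63-fold lower (log2 difference −1.36, limma, BH-adjusted p = 3.79e-06) and PLK1, a mitotic kinase, 1.93-fold lower (−0.93, adjusted p = 4.64e-06). STAT3, a transcription factor, was higher by 0.28 (limma, BH-adjusted p = 0.0119). The call of CDC20, a mitotic activator, at −0.28, was lost after quantile normalization and cyclic loess, and that of WRAP53 without replicate 1 of DMSO. CCNE1 was the only one of the 12 to pass in the libraries titled sunitinib as deposited, 1.42-fold lower (−0.50, limma, BH-adjusted p = 0.00919). Without replicate 1 of DMSO, 7 of the 12 were lower there.

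Chaperonins of other kinds gave values in both directions. HSPD1 and HSPE1, the mitochondrial chaperonin and its lid, were 1.56-fold and 2.07-fold lower in the libraries titled MI-389 (limma, BH-adjusted p = 1.77e-05 and 2.16e-06), and 1.27-fold and 1.30-fold lower in those titled sunitinib (adjusted p = 0.00618 and 0.00727). HSPE1 stood at 851, 1007 and 965 FPKM in DMSO, at 462, 437 and 462 FPKM in the libraries titled MI-389 and at 732, 726 and 719 FPKM in those titled sunitinib, with no overlap between the groups. Of the chaperonin-like genes, BBS10, BBS12 and CCT6B were higher in the libraries titled MI-389 (log2 differences 0.28, 0.46 and 0.37, limma, BH-adjusted p = 0.00190, 0.00723 and 0.0147), and MKKS was lower (−0.21, adjusted p = 0.0239). BBS10, BBS12 and MKKS encode the chaperonin-like proteins that help assemble the BBSome, and the call of BBS10 with MI-389 by title was lost after quantile normalization. BBS10 was also higher in the libraries titled sunitinib (0.25, limma, BH-adjusted p = 0.0156), and BBS10, BBS12 and CCT6B were all called higher there after centring, quantile normalization and cyclic loess. Without replicate 1 of DMSO, BBS10 was higher and MKKS lower there.

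**Figure D4:**
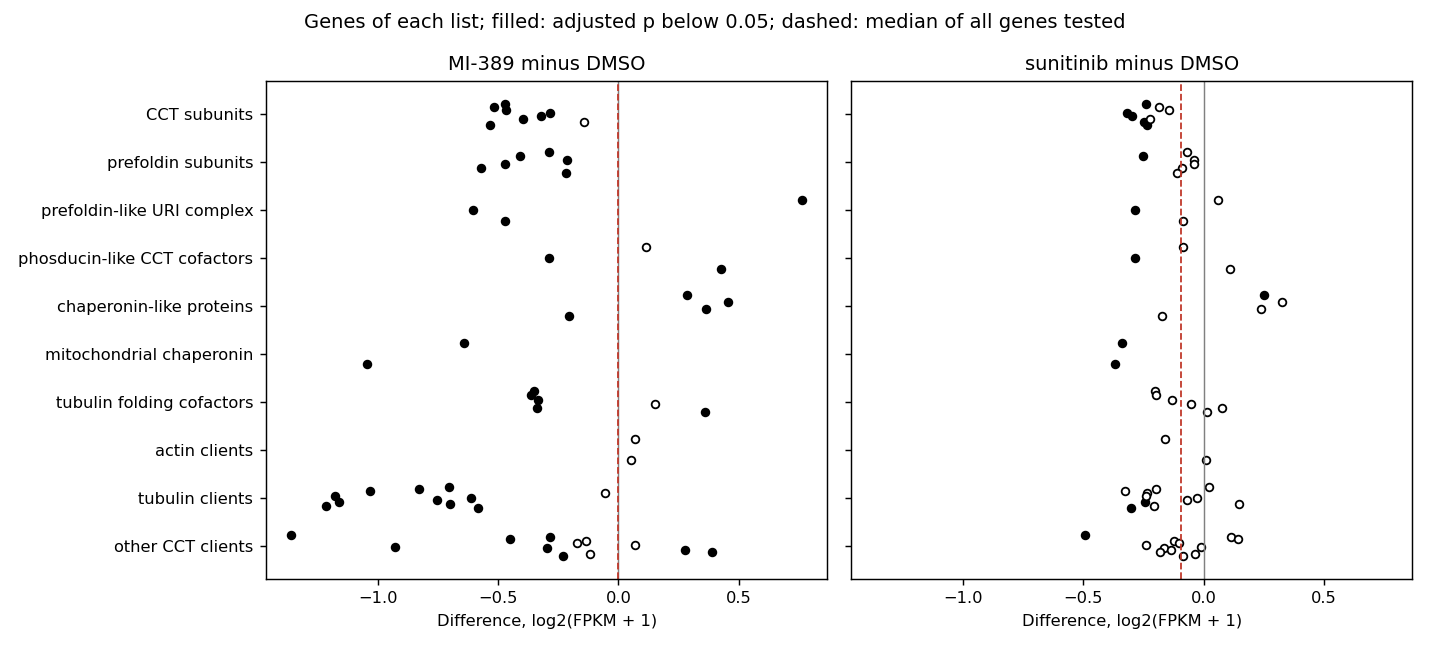
Difference from DMSO on the log2(FPKM + 1) scale (x axis) of each tested gene in the lists named on the y axis, for the libraries titled MI-389 (left) and sunitinib (right). Filled points have a limma BH-adjusted p below 0.05, the dashed line is the median of all genes tested, and tubulins and the mitochondrial chaperonin lie to the left of it in the left panel.

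The zeta subunit has related rows in the table, which were looked at after their values were seen. CCT6B, a copy of CCT6A found mostly in testis, stood at 3.81 ± 0.720 FPKM in DMSO and at 5.16 ± 0.217 FPKM in the libraries titled MI-389 (SD, n = 3), far below CCT6A in each. CCT6P1, a transcribed pseudogene, stood at 20.4, 21.3 and 22.2 FPKM in DMSO, at 41.2, 39.1 and 47.6 FPKM in the libraries titled MI-389 and at 17.5, 16.7 and 16.8 FPKM in those titled sunitinib. It was higher in the libraries titled MI-389 than in DMSO (log2 difference 0.96, limma, BH-adjusted p = 5.72e-06) and lower in those titled sunitinib (−0.31, adjusted p = 0.0189). CCT6P3 stood at 18.8, 23.1 and 20.7 FPKM in DMSO, at 41.4, 38.1 and 41.1 FPKM in the libraries titled MI-389 and at 19.1, 18.2 and 18.9 FPKM in those titled sunitinib, 1.92-fold higher in the libraries titled MI-389 (0.92, limma, BH-adjusted p = 7.74e-06). In the libraries titled sunitinib CCT6P3 differed from DMSO by −0.15 (limma, BH-adjusted p = 0.188), and neither pseudogene was higher there, while CCT6A was lower. Both rows remained higher in the libraries titled MI-389 than in DMSO after centring, quantile normalization, cyclic loess and rescaling to the spike-in RNAs.

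**Figure D5:**
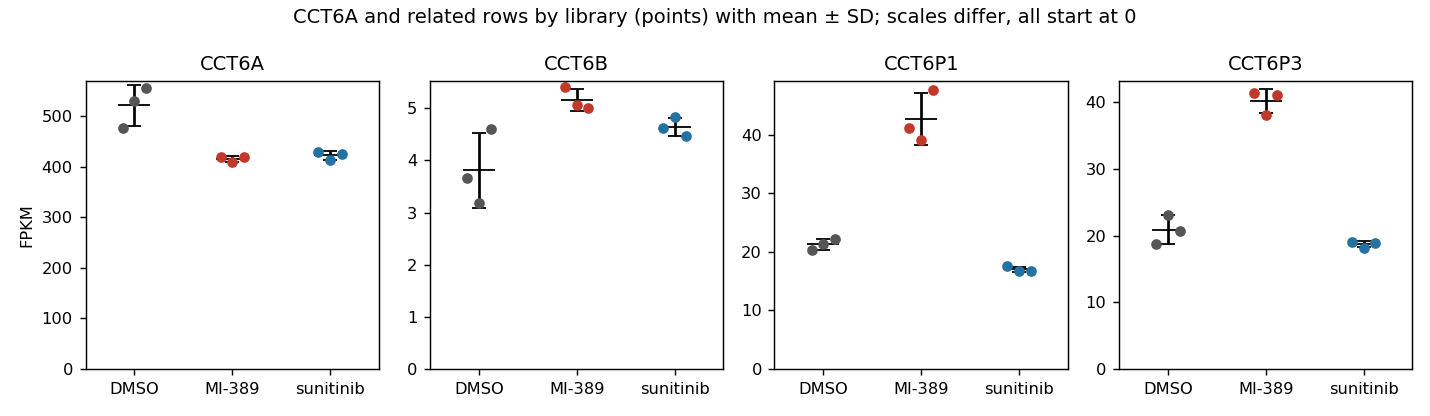
Level in FPKM (y axis, from 0, with a scale of its own in each panel) of CCT6A, CCT6B and the pseudogenes CCT6P1 and CCT6P3 by library title, with points for libraries and bars for the mean ± SD. CCT6A is lower, and both pseudogenes are higher, in every library titled MI-389 than in any of DMSO.

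Some reads of the members cannot be assigned to one gene. Of the windows of 50 bases along each member's longest coding transcript in the GENCODE v29 annotation, 6.67% in CCT6A occurred in transcripts of other genes, 4.01% in CCT6P3 and 1.54% in CCT6P1. For TCP1 the share was 22.1%, and 14.3% of its windows lay in ACAT2, a neighbour with a row in the table. For CCT5 it was 49.8%, and 47.1% of its windows lay in AC012640.4, which has no row of that name. The share was 10.5% for CCT4 and 8.59% for CCT8, and no such window was found for CCT2, CCT3 and CCT7. Libraries were made without marking strand, so reads of TCP1 and CCT5 in particular may be divided with overlapping genes, and the effect of this on their values was not tested.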

How the data were processed

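Values are FPKM as the authors deposited them, with libraries in columns and gene symbols in rows, 92 of them spike-in RNAs and 23621 genes. Per the labels' protocols, RNA received ERCC spike-ins by cell number, and libraries were made with a SMARTer v4 kit. The submitters' processing notes name HISAT, Cufflinks 2.0.0 and hg19. How genes were annotated and counted, and how libraries were scaled to each other, is not given in the sources used here. Over the 16 spike-in RNAs that averaged 10 FPKM or more, the median log2 difference from DMSO was −0.03 for MI-389 and −0.01 for sunitinib by title, so a shift of total messenger RNA can appear in the values. Depth cannot be read from FPKM, and no intervals for counting error are given.

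The 12301 genes that averaged 1 FPKM or more over 9 libraries entered limma 3.58.1 (R 4.3.3) as log2(FPKM + 1), 3 groups in 1 model with a variance trend, two-sided, with Benjamini-Hochberg adjustment and a threshold of 0.05. Fold changes are ratios of mean FPKM, and the log2 scale understates changes of low genes. Groups follow the titles. The members and lists were chosen with earlier results of these data known. The text names a selection from this rule: the 8 members, of each list up to 4 called genes by smallest adjusted p, lists of 4 or fewer whole, and the 8 genes most correlated with the members' mean. Some genes that the rule names are not reported here. On simulated data from the 12301 genes, 100 genes were changed by 1 and 100 by a smaller step. The model recovered 98 and 75 between MI-389 and DMSO by title and 97 and 75 between sunitinib and DMSO. Between the treated groups it recovered 94 and 66. Of the calls, 4.95%, 3.37% and 1.84% were false in these comparisons. The simulated noise was drawn separately for each gene and library, so these rates leave out shifts shared by the genes of a library. Alternatives were pseudocounts of 0.1 and 5, no filter or a minimum of 5 FPKM, centring, quantile normalization, cyclic loess, rescaling to spike-ins, a replicate block, the compared libraries alone, robust variance, no variance trend and each library left out, and, added after seeing the data, a minimum of 300 FPKM. Figures were drawn with matplotlib 3.10.9 in Python 3.11.15.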

Additional observations from a re-analysis of the deposited data

How the results depend on the processing

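The members' median kept its sign in each comparison under the alternatives run, while its size moved with the scaling. With MI-389 by title against DMSO, the members' median log2 difference of −0.43 became −0.51 after centring, −0.19 with quantile normalization and −0.12 with cyclic loess, and ranged from −0.51 to −0.39 with a library left out. The count of called members ranged from 7 to 8 with a library left out, beside 6007 to 7250 of all 12301 genes called. After cyclic loess it was 6 (5 lower and 1 higher), beside 3988 of all 12301 genes lower and 4101 higher. The 40 called pathway genes became 9 among genes that averaged 300 FPKM or more, where fewer genes were tested (11 against 49). There 446 of all 598 genes were called, against 6979 of 12301 as deposited. CCT8 turned from −0.14 to 0.088 and 0.15 after quantile normalization and cyclic loess.

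With sunitinib by title against DMSO, 5 members were called, all lower, beside 2079 of 12301 genes called lower. The count was 2 without a filter (1248 of 23621 genes lower) and 2 at a minimum of 300 FPKM (47 of 598). It was 2 with the compared libraries alone (1076 of 12301) and 2 with a replicate block (1697 of 12301). With a library left out it ranged from 1 to 8, beside 806 to 3950 genes lower. The members' median of −0.24 became −0.15 after centring and −0.11 after either quantile normalization or cyclic loess. It ranged from −0.31 to −0.20 with a library left out. The 9 called pathway genes became 14, 20 and 22 under these scalings and 2 at a minimum of 300 FPKM. With a library left out they ranged from 5 to 30. All genes called went from 2370 of 12301 to 3136, 3677 and 3814 under the same scalings. They numbered 50 of 598 at a minimum of 300 FPKM, and 929 to 4244 of 12301 with a library left out. Between the treated groups, the 4 called members became 7 after centring and ranged from 4 to 6 with a library left out. All genes called were 6927 of 12301 as deposited, 8142 after centring, and 5950 to 7594 with a library left out. The members' median of −0.21 became −0.37, −0.086 and −0.016 after centring, quantile normalization and cyclic loess. The 30 called pathway genes became 8 at a minimum of 300 FPKM, beside 357 of 598 genes called. CCT5 turned from 0.04 to −0.13 and CCT8 from 0.10 to −0.061 after centring, CCT6A from −0.02 to 0.076 with quantile normalization and 0.14 with cyclic loess, and CCT7 from −0.18 to 0.021 after cyclic loess. Apart from the smaller number of genes tested, the cause was not tested.

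Replicate numbers were not taken to pair the libraries. The correlations of same-numbered libraries ranged from −0.04 to 0.11, and those of differently numbered libraries from −0.22 to 0.13. Same-numbered pairs of the treated groups had 0.07, 0.11 and 0.04, and same-numbered pairs with DMSO ranged from −0.04 to 0.10. Of the 9 libraries, 5 correlated best with their own number. Whether same-numbered libraries were handled together was not tested. With the replicate block, 7 and 4 members were called in the other comparisons, and 38, 7 and 31 pathway genes in the order above. Of all 12301 genes, 6816, 1941 and 6740 were called with the block, in the same order. Depth is unknown, so its limit on the calls cannot be stated.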
